A study of Mus musculus with 6 samples.

Results

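The genes described here are 10 genes for proteins that sit on, or act at, the surface of lipid droplets: the CIDE genes Cidea, Cideb and Cidec, the perilipin genes Plin2, Plin3, Plin4 and Plin5, the lipase inhibitor genes G0s2 and Hilpda, and Hsd17b13. They were taken by symbol from a table of 22173 gene symbols, in which all 10 had exactly 1 row. The study measured liver RNA by RNA-seq in wild type mice put on an HFHC diet at 6 weeks of age for 16 weeks. In the last 4 weeks 3 of the mice received DDK and the other 3 received vehicle, so both groups carried the same diet, and the labels name no difference between them but the agent. HFHC and DDK are printed as the labels give them; in the title of the series DDK is a limonoid, set against steatohepatitis, the inflamed form of fatty liver. No group on a normal diet was analysed here, and the sources used here do not give sex, strain or dose.

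Hepatocytes keep triglyceride and cholesteryl esters in droplets, each bounded by a single layer of phospholipid on which coat proteins sit. Perilipins cover that surface and control access of lipases. CIDE proteins gather where droplets touch and move lipid from the smaller into the larger droplet, which makes large droplets, and CIDEB also serves the loading of lipid onto VLDL particles. ATGL, the lipase that takes the first fatty acid off triglyceride, is encoded by Pnpla2, is activated by ABHD5 and is inhibited by the products of G0s2 and Hilpda. CIDEA, CIDEC and PLIN4 are best known from fat cells and are found in liver mainly when it is fatty, and several of the 10 genes are textbook targets of the nuclear receptors PPARG or PPARA.

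RefSeq promoters on GRCm38.p6 were at hand for 9 of the 10 genes, with 12 start sites. The stretches below are the 250 bases just before a start site, 5′ to 3′ on the gene's own strand, for Cidec and the 4 perilipin genes, the genes with a promoter at hand whose mean level fell by more than 2-fold. Capitals mark the letters found by the motif search described after them.
Plin2, chr4:86670060-86670309, minus strand: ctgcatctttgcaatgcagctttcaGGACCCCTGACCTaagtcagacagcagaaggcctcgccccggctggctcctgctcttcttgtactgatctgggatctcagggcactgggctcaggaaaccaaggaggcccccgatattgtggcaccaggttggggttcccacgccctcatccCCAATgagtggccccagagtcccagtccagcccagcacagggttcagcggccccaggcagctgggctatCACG
Plin3, chr17:56290512-56290761, minus strand: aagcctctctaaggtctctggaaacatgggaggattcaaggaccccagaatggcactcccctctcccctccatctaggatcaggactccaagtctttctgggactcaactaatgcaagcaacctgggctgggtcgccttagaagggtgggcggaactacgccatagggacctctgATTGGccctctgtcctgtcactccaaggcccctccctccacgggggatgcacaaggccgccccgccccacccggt
Plin4, chr17:56109783-56110032, minus strand: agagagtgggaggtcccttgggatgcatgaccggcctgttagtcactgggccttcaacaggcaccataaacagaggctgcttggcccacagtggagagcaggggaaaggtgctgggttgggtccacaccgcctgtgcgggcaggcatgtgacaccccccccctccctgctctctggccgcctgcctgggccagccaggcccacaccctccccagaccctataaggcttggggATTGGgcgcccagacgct
Plin5, chr17:56117549-56117798, minus strand: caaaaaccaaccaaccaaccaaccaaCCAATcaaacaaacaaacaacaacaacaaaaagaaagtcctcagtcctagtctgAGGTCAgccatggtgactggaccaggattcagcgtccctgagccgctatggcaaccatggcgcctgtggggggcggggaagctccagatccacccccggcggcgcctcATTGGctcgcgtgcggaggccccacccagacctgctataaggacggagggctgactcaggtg
Cidec, chr6:113435761-113436010, minus strand: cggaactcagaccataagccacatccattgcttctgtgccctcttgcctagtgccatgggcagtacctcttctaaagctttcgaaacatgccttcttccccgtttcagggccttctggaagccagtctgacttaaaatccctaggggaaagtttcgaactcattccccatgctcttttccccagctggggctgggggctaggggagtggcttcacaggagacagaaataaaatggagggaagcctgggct

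The search covered both strands from 250 bases before to 50 after each start, with the start base as 0. PPAR and RXR bind as a pair to DR1 elements, 2 copies of AGGTCA in the same direction with 1 base between them. With up to 2 mismatches, the Plin2 promoter alone among the 12 held such an element, at -225 to -213 on the opposite strand and with 2 mismatches, where 3.86% of 32851 promoters hold 1. A single exact AGGTCA, which overlaps that element in Plin2, lay also before Hsd17b13, before the upstream Plin5 start and after the downstream one, against 16.3% of all promoters. The E-box CACGTG spanned the Plin2 start, so the printed stretch ends in its first 4 letters (7.15% of promoters). ACGTG, the core bound by hypoxia-inducible factors, lay before the downstream Hilpda start and inside the Plin2 E-box (19.6%). CCAAT was found before Plin2, Plin3, Plin4 and Plin5 (37.4%), and TATAAA before Cideb alone (13.6%). None of these letters lay in either Cidec window, which says only that they are not in these bases. Cidec, Hilpda and Plin5 each have 2 start sites in RefSeq, while the deposited table has 1 row per gene.

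Expression was given as FPKM, fragments scaled to gene length and library depth. The 3 DDK libraries held 26576291 to 30237490 fragments each and the 3 vehicle libraries 33963898 to 36105315. The groups were compared by limma on log2(FPKM + 1) over 10681 genes, and a gene passed with an adjusted p under 0.05. All 10 genes passed the filter on low values. The 10 hepatocyte markers, with the albumin gene among them, summed to an FPKM of 85220 to 90740 in DDK and 54470 to 69920 in vehicle livers, so these sums did not overlap. Alb, Apoa2 and Ttr, among the most abundant of them, rose and Trf fell (median of the 10 log2 fold changes -0.05), while with quantile normalization 1 rose and 4 fell, and without DDK replicate 2 none passed (0 and 0). The groups differed widely in these livers: 30.3% of all genes tested were called lower in DDK and 10.2% higher, and for 39.2% every DDK value lay below every vehicle value. As deposited, 3234 genes were lower and 1093 higher; median-ratio scaling turned this to 1650 lower and 1963 higher. The log2 fold change of the median gene was -0.23 as deposited and 0.00 after median-ratio scaling, and fold changes are to be read against that shift.

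Of the 10 genes, 7 fell with DDK, 0 rose and 3 did not pass, beside the 30.3% called lower and 10.2% called higher among all genes. Cidea, Cidec and Plin4 fell most, Plin2, Plin3 and Plin5 fell by nearly the same factor, and Cideb fell least. G0s2, Hilpda and Hsd17b13 did not pass. For 8 genes, the 7 called and Hilpda, all DDK livers lay below all vehicle livers, beside 39.2% of all genes tested. The median log2 fold change of the 10 was -1.15 against -0.23 for all genes. The counts were also 7 lower and 0 higher with limma's voom on whole fragments. They were 6 and 0 after median-ratio scaling, where 1650 of all 10681 genes were lower and 1963 higher. After rescaling to TPM they were 9 and 0. Under TPM 4929 of all 10681 genes were lower and 631 higher, and the median gene stood at -0.45.

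**Figure D1:**
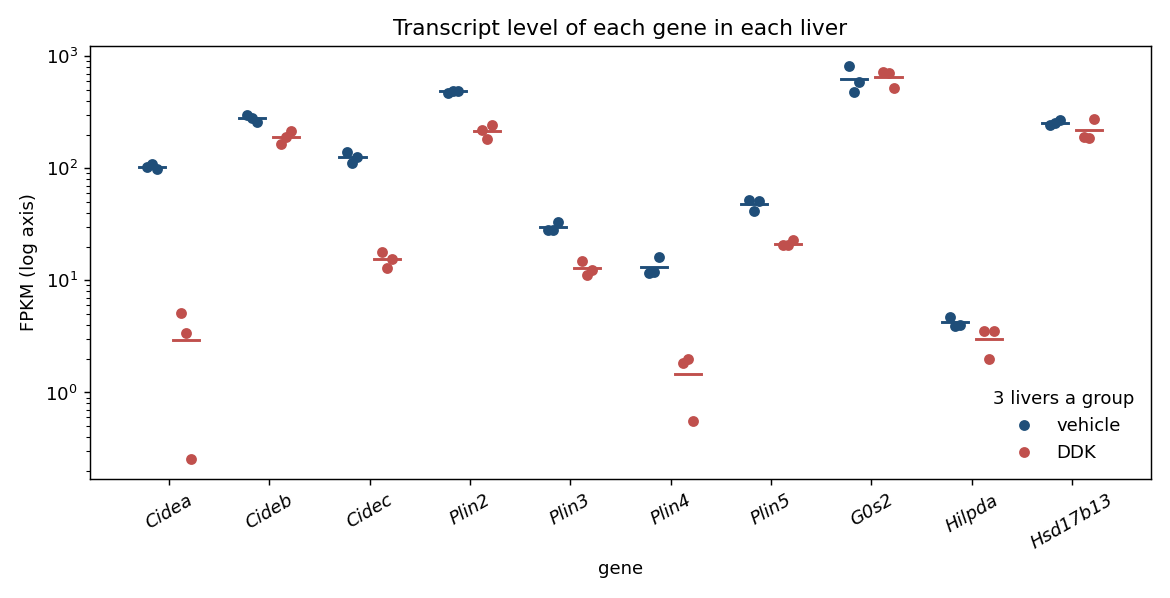
FPKM of each of the 10 genes in each liver on a log axis, with 3 points and a line at the mean for vehicle (blue) and DDK (red). Cidea, Cidec and Plin4 show wide gaps between the groups, and G0s2 and Hsd17b13 overlap.

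**Figure D2:**
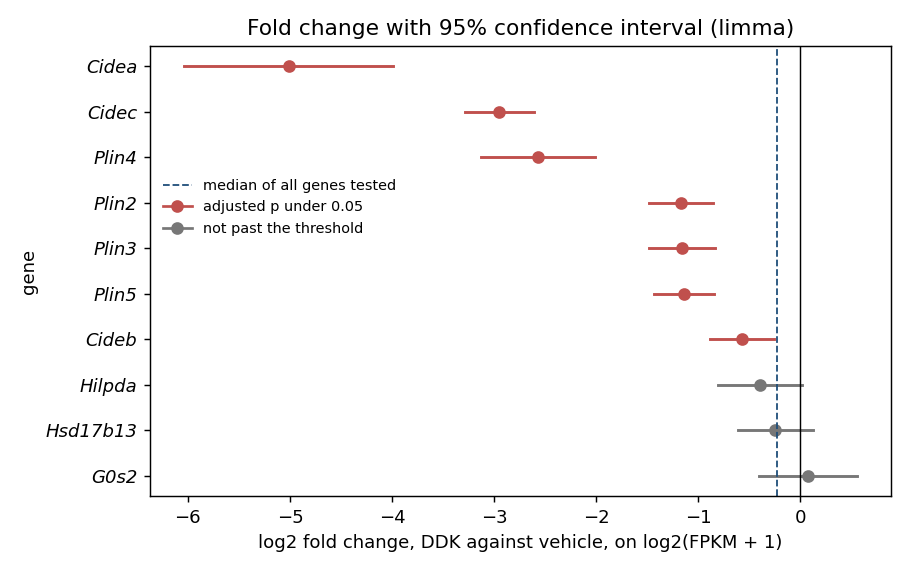
Log2 fold change of DDK against vehicle on log2(FPKM + 1) for each gene, with limma's 95% confidence interval as a line; red marks an adjusted p under 0.05, grey the others, and the dashed line is the median of all genes tested, -0.23. Values run from -5.01 for Cidea to 0.08 for G0s2.

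Cidea, known from brown fat, where it enlarges droplets, lies on chromosome 18 (67343604 to 67367785 on GRCm38, plus strand, ENSMUSG00000024526.9). Its FPKM was 103, 109.8 and 98.1 in vehicle replicates 1 to 3 and 5.14, 3.39 and 0.256 in DDK replicates 1 to 3. Vehicle livers were close to each other, and the groups were far apart. The mean fell from 104 ± 5.86 to 2.93 ± 2.47 (SD, n = 3 per group), a ratio of means of 35.4 (log2 fold change -5.01 ± 0.46 SE, adjusted p = 0.000292), and only 1 of the 10681 genes had a larger fall on this scale. DDK replicate 3 stood apart, with 9 fragments where the other DDK livers had 172 and 105. Those 9 fragments allow an FPKM of 0.117 to 0.485 by an exact Poisson interval, which covers counting error only and lies below that of DDK replicate 2, 2.78 to 4.11. Without DDK replicate 3 the log2 fold change was -4.33 (adjusted p = 1.04e-05).

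Cidec, also called Fsp27, promotes fusion-like growth of droplets and lies on chromosome 6 (113424634 to 113435760, minus strand). Its FPKM was 141, 111 and 125 in vehicle livers and 17.8, 12.9 and 15.6 in DDK livers, with each group tight. It fell 8.13-fold in means, from 125 ± 14.9 to 15.4 ± 2.43 (-2.95 ± 0.15 on the log2 scale, adjusted p = 1.80e-05), and had the 2nd smallest p of all genes tested. Unlike Cidea, it did not drop further in DDK replicate 3.

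Cideb, the CIDE gene normally active in liver, lies on chromosome 14 (55754050 to 55758458, minus strand). Its FPKM was 301, 282 and 258 in vehicle livers and 164, 189 and 214 in DDK livers, and the groups did not overlap. The mean fell 1.48-fold, from 281 ± 21.5 to 189 ± 25.2 (log2 fold change -0.57 ± 0.14, adjusted p = 0.0114). That call ended after median-ratio scaling (log2 fold change -0.26, adjusted p = 0.292) and without DDK replicate 1 (-0.47, adjusted p = 0.0585). Cideb overlaps Nop9, a gene on the other strand, over 1451 bp, and the library kit does not mark strand, so reads of the shared stretch cannot be told apart. Nop9 itself had an FPKM of 11.4 ± 0.517 with DDK and 12.1 ± 1.94 with vehicle (adjusted p = 0.736), far below Cideb, and its sign turned after median-ratio scaling (0.22).

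The make-up of the CIDE family differed between the groups. FPKM is per length, so levels of the 3 can be set side by side. In vehicle livers Cideb gave 55.03 ± 1.26% of the summed CIDE FPKM, Cidec 24.6 ± 2.23% and Cidea 20.4 ± 1.46%. In DDK livers Cideb gave 91.0 ± 2.84%, Cidec 7.52 ± 1.73% and Cidea 1.504 ± 1.32%. The sum went from 510 ± 32.2 to 208 ± 21.7, and no DDK liver overlapped the vehicle range for any of these shares. Within each liver the log2 ratio of Cidea to Cideb (both as FPKM + 1) was -1.54 to -1.35 in vehicle and -7.42 to -4.75 in DDK. The ratio of Cidec to Cideb was -1.34 to -1.04 and -3.77 to -3.14, and that of Cidea to Cidec -0.44 to -0.01 and -3.72 to -1.61. All 3 ratios separated the groups completely, with an exact permutation p of 0.1 each (two-sided, 0.2 adjusted over 10 pairs), the smallest that 3 livers against 3 can give. The ratios depend on each other, since that of Cidea to Cidec follows from those of each gene to Cideb.

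**Figure D3:**
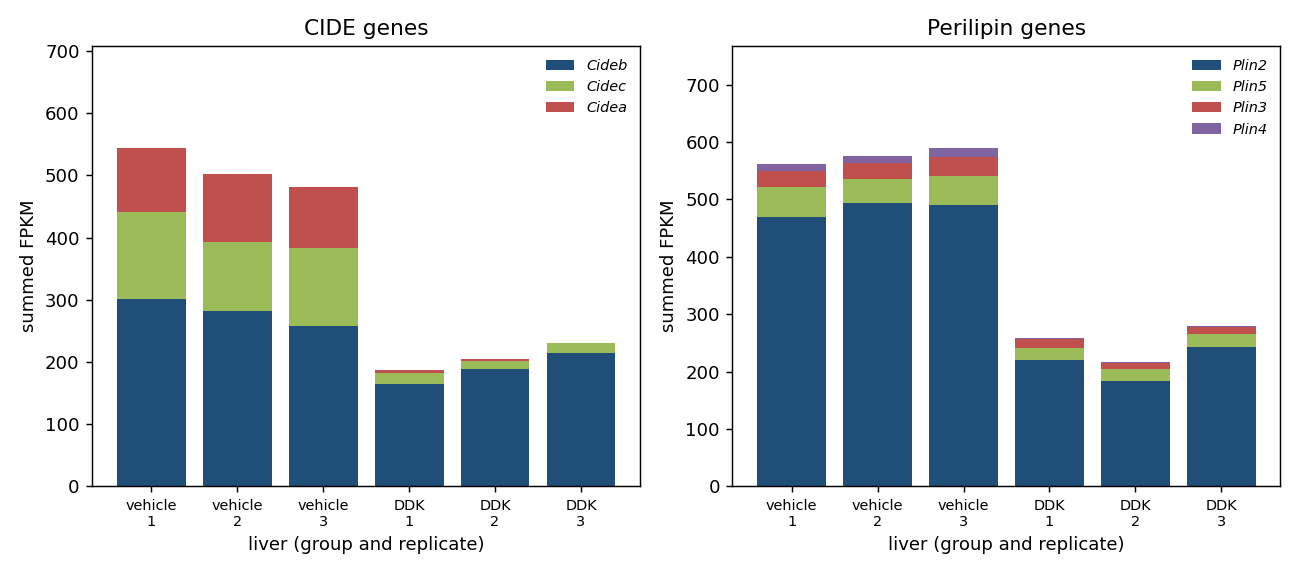
Summed FPKM of the 3 CIDE genes (left) and of Plin2 to Plin5 (right) in each liver, stacked by gene. Both stacks are shorter in DDK livers; the Cidea and Cidec parts of the CIDE stack shrink more than the Cideb part, while Plin2 keeps over 83.1% of the perilipin stack in every liver.

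Plin2, the main droplet coat protein of hepatocytes, lies on chromosome 4 (86648386 to 86670060, minus strand). Its FPKM was 469.6, 493 and 490.45 in vehicle livers and 221, 183 and 243 in DDK livers. The vehicle livers nearly coincided, and every DDK liver was far below them. The mean fell 2.24-fold, from 484 ± 12.8 to 216 ± 30.4 (log2 fold change -1.17 ± 0.14, adjusted p = 0.000733).

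Plin3, a coat protein of small and newly formed droplets, lies on chromosome 17 (56277476 to 56292873, minus strand). Its FPKM was 28.1, 28.4 and 33.0 in vehicle livers and 14.995, 11.2 and 12.3 in DDK livers, again with no overlap. It fell 2.32-fold, from 29.8 ± 2.72 to 12.8 ± 1.95 (log2 fold change -1.16 ± 0.14, adjusted p = 0.000842). Plin5, which ties droplets to mitochondria in tissues that burn fat, was at 52.0, 41.8 and 50.6 in vehicle livers and at 20.5, 20.5 and 22.8 in DDK livers. It fell 2.26-fold, from 48.1 ± 5.52 to 21.3 ± 1.32 (-1.14 ± 0.13 on the log2 scale, adjusted p = 0.000696), and its DDK livers were the most alike of the 4 perilipins.

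Plin4, a coat protein of large fat cells and muscle, had the largest fall of the 4 perilipins. Its FPKM was 11.6, 11.8 and 16.1 in vehicle livers and 1.83, 1.99 and 0.559 in DDK livers. It fell 9.01-fold, from 13.2 ± 2.55 to 1.46 ± 0.786 (log2 fold change -2.57 ± 0.25, adjusted p = 0.000363). As for Cidea, DDK replicate 3 was the lowest liver, with 111 fragments against 346 and 348, and without it the log2 fold change was -2.27 (adjusted p = 0.000246).

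Plin4 and Plin5 are neighbours on chromosome 17. Plin4 (56100591 to 56109803) and Plin5 (56111601 to 56117596) lie on the minus strand with 1797 bp between them, and the next gene beyond Plin5 is Lrg1, an acute-phase glycoprotein gene, 2081 bp further. Lrg1 stood at 283 ± 79.3 in DDK and 507 ± 98.9 in vehicle (log2 fold change -0.86, adjusted p = 0.0139), a call that ended after median-ratio scaling (adjusted p = 0.129) and without a filter on low values (0.0577). Hdgfl2, which overlaps the far end of Plin4 by 17 bp on the other strand, stood at 7.92 ± 0.133 in DDK and 6.00 ± 0.464 in vehicle (log2 fold change 0.35, adjusted p = 0.0528), and it passed after median-ratio scaling (0.62, adjusted p = 0.00887).

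The shares of Plin2, Plin3 and Plin5 in the perilipin total overlapped between the groups, and that of Plin4 did not. Plin2 gave 84.2 ± 1.39% of the summed perilipin FPKM in vehicle and 85.7 ± 1.39% in DDK livers, Plin5 8.37 ± 1.01% and 8.51 ± 0.821%, and Plin3 5.18 ± 0.355% and 5.13 ± 0.694%, with overlapping groups. Plin4 went from 2.28 ± 0.388% to 0.610 ± 0.370%, with no overlap. The whole sum went from 575 ± 14.4 to 251 ± 31.6. Within livers, the log2 ratio of Plin2 to Plin3 differed between groups by -0.01 and that of Plin5 to Plin3 by 0.02 (exact permutation p = 1 for both, two-sided). The ratio of Plin4 to Plin3 differed by -1.41 and that of Plin4 to Plin5 by -1.43, each with no overlap and an exact permutation p of 0.1 (0.2 adjusted over the 10 pairs). Both ratios rest on the same Plin4 values.

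**Figure D4:**
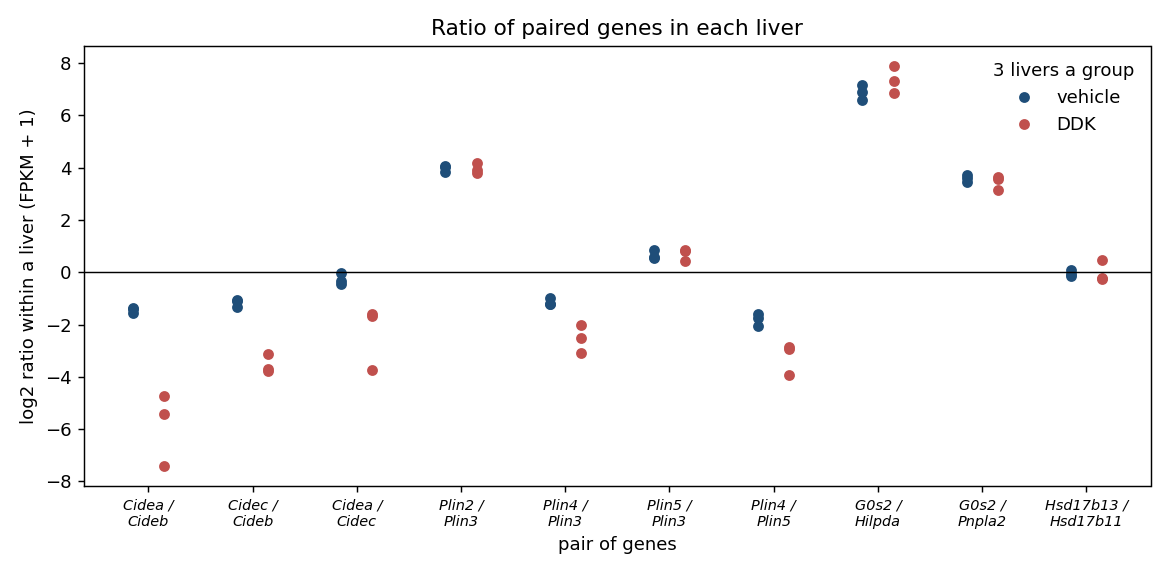
Log2 ratio of FPKM + 1 for 10 pairs of genes within each liver, vehicle in blue and DDK in red. The groups separate for the 3 CIDE pairs and the 2 pairs with Plin4, and overlap for the other 5 pairs.

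Both genes for inhibitors of ATGL did not pass. G0s2 lies on chromosome 1 (193272161 to 193273217, minus strand) and was the most abundant of the 10 by mean in both groups. Its FPKM was 824, 474 and 589.7 in vehicle livers and 719, 715 and 524 in DDK livers, with the groups mixed. The means were 629 ± 178 and 653 ± 111 (log2 fold change 0.08, 95% confidence interval -0.40 to 0.55, adjusted p = 0.796), and the sign turned under 4 of 5 other scalings (-0.33 to -0.03), all but median-ratio scaling. The whole of G0s2 lies within Lamb3, a laminin gene on the other strand, so unstranded reads of the shared stretch cannot be told apart. Lamb3 stood at 0.831 ± 0.222 in DDK and 3.89 ± 0.762 in vehicle, far below G0s2.

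Hilpda, the inhibitor induced by low oxygen and by fatty acids, lies on chromosome 6 (29272488 to 29275446, plus strand). Its FPKM was 4.76, 3.94 and 3.97 in vehicle livers and 3.52, 2.01 and 3.56 in DDK livers, the lowest vehicle mean of the 10. All DDK livers lay below all vehicle livers, by a narrow margin in DDK replicates 1 and 3. The log2 fold change was -0.40 (95% confidence interval -0.81 to 0.02, adjusted p = 0.111), and it passed after rescaling to TPM (-0.64, adjusted p = 0.0317) and after correction for gene length (-0.55, 0.0329). The median of all genes was -0.45 under TPM and -0.008 after length correction. Only 59 to 190 fragments per library lay behind Hilpda, against 13359 to 25072 for G0s2.

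Pnpla2, the target of both inhibitors, was at 61.8, 38.1 and 53.0 in vehicle livers and 58.96, 56.6 and 58.2 in DDK livers, with the groups mixed (log2 fold change 0.21 ± 0.17, adjusted p = 0.342, and -0.02 under TPM). Its activator gene Abhd5 had a mean of 9.31 with DDK and of 10.6 with vehicle (log2 fold change -0.17 ± 0.14, adjusted p = 0.336), and its sign turned under 3 other scalings (0.10 to 0.13). The log2 ratio of G0s2 to Pnpla2 within livers was 3.45 to 3.72 in vehicle and 3.15 to 3.64 in DDK, and differed by -0.13 (exact permutation p = 0.6, two-sided, 0.857 adjusted over the 10 pairs).

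Hsd17b13, a hepatocyte droplet enzyme linked in human genetics to liver disease, lies on chromosome 5 (103955440 to 103977410, minus strand). Its FPKM was 244, 252 and 268 in vehicle livers and 189.7, 188 and 276 in DDK livers. DDK replicates 1 and 2 were lower than every vehicle liver, and DDK replicate 3 was the highest of the 6. The log2 fold change was -0.25 (95% confidence interval -0.61 to 0.12, adjusted p = 0.249). It passed without DDK replicate 3 (-0.43, adjusted p = 0.0365). Under TPM, where the median of all genes was -0.45, it also passed (-0.48, 0.043), and it stood at 0.06 after median-ratio scaling. Its relative Hsd17b11, 12351 bp away and also a droplet enzyme, stood at 215 ± 12.8 in DDK and 263 ± 22.3 in vehicle (log2 fold change -0.29, adjusted p = 0.0947, 0.02 after median-ratio scaling). It passed as lower under 3 other scalings: TPM (-0.52, adjusted p = 0.00689), quantile normalization (-0.44, 0.0218) and removal of the 20 most abundant genes (-0.39, 0.0282). The ratio of the 2 genes within livers differed by 0.04 between groups, with overlap (exact permutation p = 1, two-sided).

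DDK replicate 3 thus held the lowest Cidea, Plin4 and G0s2 and the highest Hsd17b13, Cideb, Plin2, Plin5 and Hilpda of the DDK livers. It also held the lowest value of the 6 for Cfd, the adipsin gene, with an FPKM of 1.40 where DDK replicates 1 and 2 had 58.7 and 57.6 and vehicle livers 39.2 to 134. Of 11 macrophage markers it held the lowest value of the DDK livers for 7, among them Csf1r (4.94, against 12.6 and 7.76), the highest for 2, Cd9 and Spp1, and a value in between for the other 2, Trem2 and Gpnmb. Among DDK livers, replicate 3 was also lowest for 5 of 6 endothelial and 5 of 7 tested fat cell markers, and highest for 1 in each. It was lowest for 4 of 5 red blood cell markers, highest for 1, and lowest for 3 of 3 neutrophil markers. Of 10 hepatocyte markers it was highest for 6 and lowest for 4, and it was highest for 5 of 5 cholangiocyte markers. Low values there were thus not particular to macrophage markers. Of 9 markers of stellate cells and fibroblasts replicate 3 was lowest for 2 and highest for 4. It was lowest for 2 of 4 tested muscle markers and for 2 of 2 tested T and NK cell markers. Spp1 is among both the macrophage and the cholangiocyte markers. No such tally was made over all genes. What the genes named here share in that liver was not tested.

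By mean FPKM the order in vehicle livers was G0s2, Plin2, Cideb, Hsd17b13, Cidec, Cidea, Plin5, Plin3, Plin4 and Hilpda. Neighbours whose values overlapped there were G0s2 with Plin2 and Cideb with Hsd17b13. In DDK livers it was G0s2, Hsd17b13, Plin2, Cideb, Plin5, Cidec, Plin3, Hilpda, Cidea and Plin4. Overlap there joined Hsd17b13, Plin2 and Cideb, joined Cidec and Plin3, and joined Hilpda, Cidea and Plin4. Cidea thus went from the 6th to the 9th place and Cidec from the 5th to the 6th.

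Genes with the most similar pattern were found by the root mean square difference between mean-centred log2(FPKM + 1) profiles over the 6 libraries, which describes likeness in these livers only. For Cidea the nearest were Lcn2, Saa2 and Saa1, acute-phase genes, at 0.874 to 1.18, larger than for any other of the 7 genes called lower. For Cidec they were Anxa2 (0.173), H1f2 and Ly6d, and Anxa2 went from an FPKM of 61.5 ± 3.33 to 6.60 ± 0.458. Nearest to Plin4 were the lysozyme gene Lyz2 (0.220), 1 of the macrophage markers below, Clec7a, a receptor for fungal glucans, and Hmox1, the heme oxygenase. Plin3 was followed within 0.0639 by Npc2, Ucp2 and Gatm. Pdzk1, Ube2g2 and Fkbp1a followed Plin2 within 0.0772, and Car2, Tom1 and Tmem176b followed Plin5 within 0.0916. Cideb was followed by Tmem38b and Slc25a22 within 0.0624.

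Of 20 measured transcription factors described as acting on droplet genes, 8 fell and 1 rose (median log2 fold change -0.24, against -0.23 for all genes), with 6 and 2 after median-ratio scaling. Among all genes 30.3% were called lower and 10.2% higher, and after median-ratio scaling 1650 of 10681 were lower and 1963 higher. The counts of this list and of those below are to be read beside these. Pparg, the receptor that drives fat storage, was at 11.6, 10.4 and 11.5 in vehicle livers and 2.47, 2.85 and 2.56 in DDK livers. It went from 11.2 ± 0.633 to 2.63 ± 0.198 (log2 fold change -1.75 ± 0.13, adjusted p = 0.000118). Epas1, which encodes HIF-2 alpha, fell from 16.3 ± 7.66 to 1.54 ± 0.270 (-2.65 ± 0.32, adjusted p = 0.000747), with vehicle replicate 1 at 7.55 and the other 2 at 19.3 and 21.9. Klf6 fell by 1.30 and Srebf1, a driver of fat synthesis, by 1.22 on the log2 scale. Ppara, the receptor of the fasting response, fell by 0.78 (adjusted p = 0.00946). The gene that rose was Esrra (0.48, adjusted p = 0.0156), a call that ended when DDK replicate 1 (0.0551), DDK replicate 2 (0.0574) or vehicle replicate 2 (0.0623) was left out and under TPM (0.144).

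Beside the 30.3% called lower and 10.2% called higher among all genes, 6 of 9 measured genes known to respond to PPARG in fatty liver fell. Of these 9, 0 rose (median -1.17), and the counts were 5 and 0 after median-ratio scaling. With the filter at an FPKM of 1 it was 5 of 8. That filter leaves out the glycerol channel gene Aqp7, whose DDK values were all below the filter (0 to 4 fragments, against 63 to 99 in vehicle libraries), so that its passing the filter fixed its direction. Those that fell included the fatty acid binding protein gene Fabp4, from 43.9 ± 12.7 to 4.79 ± 0.687, the fatty acid carrier gene Cd36, from 78.5 ± 17.1 to 24.9 ± 1.14, and Mogat1, from 8.74 ± 0.499 to 3.36 ± 0.687. Of 16 genes known to respond to PPARA 8 fell and 1 rose (median -0.46). After median-ratio scaling 4 of the 16 fell and 2 rose, beside 1650 lower and 1963 higher of all 10681 genes. Only 5 fell when vehicle replicate 3 or DDK replicate 1 or 2 was left out, and 11 without vehicle replicate 2. Cpt1a, the entry step of mitochondrial fat burning, fell from 146 ± 24.9 to 57.2 ± 5.24. The gene that rose was Cpt2 (0.43, adjusted p = 0.0201), a call lost under TPM (0.178) and when DDK replicate 1 (0.0804) or 2 (0.0832) or vehicle replicate 2 (0.0757) or 3 (0.0607) was left out. Angptl4 had an FPKM of 144 ± 17.7 with DDK and 110.0 ± 30.8 with vehicle (adjusted p = 0.122, and 0.0379 after median-ratio scaling). Of 12 hypoxia-responsive genes 6 fell and 0 rose, and 3 and 2 after median-ratio scaling. The oxygen sensor genes Egln3 (-0.92) and Egln1 (-0.67, adjusted p = 0.0541 after median-ratio scaling) were among those that fell. Slc2a1 (0.45, adjusted p = 0.0521) and Bnip3 (0.25, 0.125) did not pass, with every DDK value above every vehicle value. Leaving out vehicle replicate 2 or DDK replicate 1 or 2 brought the number that fell to 3, and quantile normalization to 2.

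Of 31 measured genes for other droplet proteins and factors of droplet formation, 14 fell and 1 rose (median -0.36). Among all genes 30.3% were called lower and 10.2% higher. After median-ratio scaling 6 of the 31 fell and 3 rose, beside 1650 lower and 1963 higher of all 10681 genes. The number that fell was 7 without DDK replicate 2 or vehicle replicate 2, 8 without vehicle replicate 3 or without a filter on low values, and 9 without DDK replicate 1. Fitm2, which partitions triglyceride into budding droplets, fell from 26.2 ± 12.7 to 6.10 ± 1.52 (-1.84 ± 0.32 on the log2 scale, adjusted p = 0.00314). Clstn3, whose locus also encodes a droplet protein of fat cells, fell by 1.16, Spg20, the spartin gene, by 1.06, and the droplet hydrolase gene Ldah by 0.85. The gene that rose was Aup1 (0.46, adjusted p = 0.0238), a call lost under TPM (0.144) and when DDK replicate 1 (0.0836) or 2 (0.0741) or vehicle replicate 2 (0.0885) or 3 (0.0878) was left out. Mettl7a1 (0.34, adjusted p = 0.0605) and Vps13c (-0.51, 0.0607) did not pass. Every DDK value lay above every vehicle value for Mettl7a1 and below for Vps13c.

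Of 13 genes of triglyceride and sterol ester assembly 7 fell and 0 rose, beside 30.3% and 10.2% of all genes. But 3 of the 13 fell and 1 rose after median-ratio scaling, beside 1650 and 1963 of all 10681 genes. The 7 include Soat1, which passed the filter through the vehicle livers alone. Only 3 fell without DDK replicate 1 or vehicle replicate 3, and 4 without DDK replicate 2 or vehicle replicate 2. Gpat3, an enzyme of the first step of glycerolipid synthesis, fell from 6.89 ± 1.55 to 2.35 ± 0.815. Of 12 lipases and partners 4 fell and 1 rose, with 4 and 2 after median-ratio scaling. That share is near the 30.3% called lower among all genes, and the median of -0.18 is near that of all genes. Mgll, the last step of triglyceride breakdown, fell from 103 ± 3.07 to 43.4 ± 0.0942 (-1.22 ± 0.11 on the log2 scale, adjusted p = 0.000292), and Lipa, the lysosomal lipase, fell by 1.13. The lipase that rose was the carboxylesterase gene Ces1g (0.56, adjusted p = 0.0164), which lost its call under TPM (0.118). Ces1d (0.35, adjusted p = 0.0873) and Ddhd2 (-0.29, 0.132) did not pass. Every DDK value lay above every vehicle value for Ces1d and below for Ddhd2. Of 7 genes that load VLDL with lipid, Arf4 (-0.89), Mttp (-0.66) and Apob (-0.72) fell and Tm6sf2 (1.01) and Pdia5 (0.45) rose, and after median-ratio scaling 1 fell and 3 rose. Leaving out 1 liver ended the calls of Mttp, Apob and Pdia5: DDK replicate 1 (adjusted p = 0.0577, 0.0881 and 0.133), DDK replicate 2 (0.0739, 0.097 and 0.0872) or vehicle replicate 2 (0.0563, 0.0889 and 0.0776). Vehicle replicate 3 did so for Apob (0.103) and Pdia5 (0.14).

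Liver pieces hold many cell types, and in such bulk samples fewer cells of a type and less RNA per cell cannot be told apart. Fat cells express Cidea, Cidec and Plin4 strongly, and the 4 defining fat cell markers were at or near 0 in both groups. Lep was at 0 in all 6 libraries. Plin1, the fat cell perilipin, and Adipoq were above 0 in vehicle replicate 3 alone, at an FPKM of 0.0615 and 0.0956. Retn was highest in DDK replicate 2, at 0.146. The 12 fat cell markers summed to an FPKM of 1178 to 2243 in vehicle and 1249 to 2070 in DDK livers, a sum made mostly of Car3, with 1030 to 2002 and 1210 to 1972. The median log2 fold change of the 7 tested was -1.60. Of these 7, 3 fell, Cd36, Fabp4 and Pparg, which fatty hepatocytes also make, and Adrb3 rose by 1.12. Cfd, also among the 7, did not pass (log2 fold change -1.95, adjusted p = 0.154). Its FPKM was 39.2 to 134 in vehicle livers and 58.7, 57.6 and 1.40 in DDK replicates 1 to 3. The part of fat cells in the changes of Cidea, Cidec and Plin4 was not tested beyond these levels.

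Macrophages fill with droplets in fatty liver and also make PLIN2. Of 11 macrophage markers 7 fell and 0 rose (median -1.28), 6 and 0 after median-ratio scaling, with Gpnmb passing the filter through the vehicle livers alone, and their summed FPKM was 400.5 to 656 in vehicle and 162 to 289 in DDK livers. Csf1r fell by 1.28 and Adgre1 by 1.76 on the log2 scale. Clec4f (-0.35, adjusted p = 0.363), C1qa (-0.48, 0.251), Spp1 (-0.29, 0.289) and Timd4 (-0.01, 0.98) did not pass. Of 9 markers of stellate cells and fibroblasts 6 fell and 0 rose, with summed FPKM of 135 to 175 and 61.0 to 84.7. Lrat, which stores retinol as ester in stellate cells, fell by 0.86. Reln (-0.39, adjusted p = 0.104), Des (-0.14, 0.458) and Acta2 (0.09, 0.613) did not pass. Of 6 endothelial markers 2 fell, a share near the 30.3% of all genes, and the sums overlapped at 33.65 to 56.0 and 26.75 to 40.9. Only 1 fell when vehicle replicate 3 or DDK replicate 3 was left out and with median-ratio scaling, and 4 fell without vehicle replicate 2. Muscle markers, relevant to Plin4 and Plin5, summed to 8.10 to 22.3 in vehicle and 10.5 to 18.0 in DDK livers. The part of macrophages and stellate cells in the lower droplet genes was not tested.

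Under median-ratio scaling, quantile normalization, length correction, removal of the 20 most abundant genes and TPM, the log2 fold change of Cidea ran from -5.51 to -4.75, that of Cidec from -3.22 to -2.65 and that of Plin4 from -3.04 to -2.25. Plin2 ran from -1.44 to -0.86, Plin3 from -1.42 to -0.86 and Plin5 from -1.39 to -0.84, and all 6 genes passed under each of these 5 scalings.

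**Figure D5:**
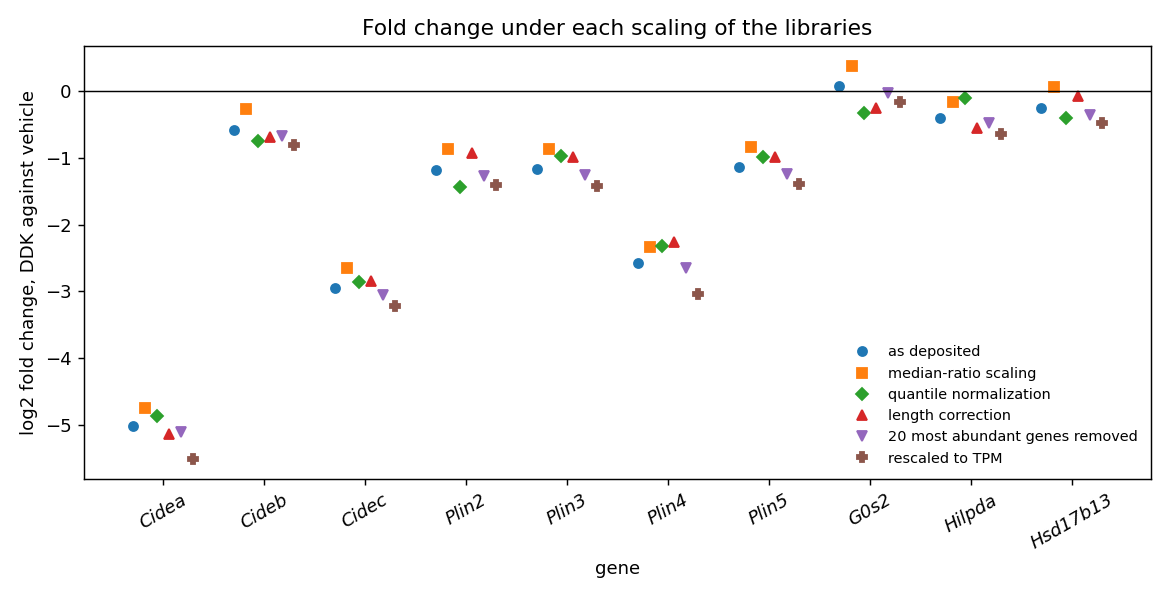
Log2 fold change of DDK against vehicle for each gene as deposited and under 5 other scalings of the libraries, 1 marker shape per scaling. Cidea, Cidec, Plin4, Plin2, Plin3, Plin5, Cideb and Hilpda lie below 0 under all 6, while G0s2 and Hsd17b13 lie on both sides of 0.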

How the data were processed

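RNA-seq was made from frozen livers of 6 mice; per the labels' protocols, an RNeasy Plus kit gave the RNA, of which NEBNext Ultra libraries took 1.3 µg each. The authors deposited FPKM per gene symbol, 1 column per library, on GRCm38 (mm10) per the submitters' processing notes; gene models, counting program and aligner: not given in the sources used here. Each library was assigned to its group by its title. Nothing says how mice were housed or libraries batched, so p-values measure only the spread between these livers.

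Depth was recovered from the FPKM steps: 100.0% of values above 0 came out as whole fragments within 0.01 of a fragment. Each gene's length was chosen to make its values whole, so that share is no check on the counts. For genes with few fragments the length and the counts can come out too small. Genes reaching an FPKM of 0.5 in 3 or more libraries entered a limma 3.58.1 fit (R 4.3.3) of DDK against vehicle on log2(FPKM + 1), with a variance trend and p-values adjusted by Benjamini-Hochberg over every gene fitted. Alternatives were other pseudocounts, filters, scalings and variance settings, voom on whole fragments, a replicate block and leaving out each library. This scale understates changes of low genes. Errors of fold changes are SE, of FPKM SD. The fit was tested on simulated data with as many rises as falls and no shift of the median gene. These data differ in both, so that test does not cover such a shift. Ratios within livers were compared by exact permutation. Positions are GENCODE M21 on GRCm38, promoters RefSeq GRCm38.p6.

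The members, gene lists and tests were chosen with earlier results of these data known. Named were all members; from each list up to 4 genes past the threshold with the smallest p and up to 2 others; defining markers; neighbours; and the 3 genes most like each member that passed, among genes with a mean FPKM of at least 1. Not every gene the rule takes is reported here, and Ppara, Esrra, Cpt2, Aup1, Ces1g, Pdia5, Pnpla2, Abhd5, Hsd17b11, Cfd and Adrb3 were chosen after their values were seen.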

Additional observations from a re-analysis of the deposited data

How the results depend on the processing

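With 3 livers a group and no second cohort, the values rest on few animals, and low genes such as Hilpda rest on few fragments. Of the 21 alternatives per gene, Cidea, Cidec, Plin2, Plin3, Plin4 and Plin5 kept direction and call in all 21, with adjusted p of at most 0.0116, and Cideb in 18. Cidea ranged from -6.00 with voom on whole fragments to -4.33 without DDK replicate 3. Cideb lost its call after median-ratio scaling, without DDK replicate 1 and at an adjusted p of 0.01 (its own is 0.0114). G0s2 turned to -0.33 after quantile normalization, -0.16 under TPM, -0.0289 without the 20 most abundant genes and -0.26 after length correction, and ranged from -0.11 to 0.29 leaving out 1 library at a time. Hsd17b13 turned to 0.064 and Hsd17b11 to 0.023 after median-ratio scaling, and Pnpla2 to -0.024 under TPM. Under median-ratio scaling, length correction and quantile normalization Abhd5 turned to 0.11, 0.13 and 0.10 and Nop9 to 0.22, 0.23 and 0.18, and Nop9 ranged from -0.19 to 0.015 leaving out 1 library. None of these values passed.

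Counts over all genes, 3234 lower and 1093 higher as deposited, were 1650 and 1963 with median-ratio scaling, 4929 and 631 under TPM, 1743 and 1886 with quantile normalization, 1844 and 1723 with length correction, and 1520 and 513 at an adjusted p of 0.01. Leaving out 1 library gave 1711 to 4127 lower and 599 to 1351 higher. Median-ratio factors ran from 0.867 to 0.933 for DDK and from 1.02 to 1.22 for vehicle. The cause of these shifts was not tested. Deviations of same-numbered livers from their group means correlated at 0.141, -0.146 and 0.056 for numbers 1 to 3, so the numbers were not taken as pairs, and not every liver correlated best with its own number. With the replicate block, 3082 genes were lower and 1052 higher, and 7 of the 10 droplet genes were lower and 0 higher, as without the block; it changed no call among the 10. Members called lower numbered 6 to 8 leaving out 1 library.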
